A study of Gallus gallus with 12 samples.

Results

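The mitochondrial respiratory chain genes are the nuclear genes for subunits of complexes I to V of the inner mitochondrial membrane and for factors that assemble them. They were taken here as all probe sets with a single gene symbol that begins with NDUF, SDH, UQCR, COX4, COX5, COX6, COX7, COX8 or ATP5, with 1 probe set per gene, the one with the highest mean scaled signal. The rule found 78 genes of 13009 with a symbol of their own, on 141 of 38439 probe sets, and 77 of the 78 passed the filter on low signals. COX7B, a small subunit of cytochrome c oxidase, did not, and its scaled signal lay between 0.148 and 3.37 on all 12 arrays. By complex, the genes coded for 6 core and 28 accessory subunits of complex I, 2 subunits of complex II, 8 each of complexes III and IV, 14 of complex V and 12 assembly factors.

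The respiratory chain passes electrons from NADH, through complex I, and from succinate, through complex II, to complex III and then by cytochrome c to complex IV, where oxygen is reduced. Complexes I, III and IV pump protons across the inner membrane, and complex V, the ATP synthase, uses the return of these protons to make ATP. Some catalytic subunits of complexes I, III, IV and V are coded by mitochondrial DNA and carry none of these gene names, whereas complex II is coded by nuclear genes throughout. Core subunits of complex I hold the flavin and the iron-sulphur clusters, whereas accessory subunits stabilise the enzyme, and assembly factors are absent from the finished complex.

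The tissue was midbrain (m) and the hindbrain segments rhombomere 1 to rhombomere 5 (r1 to r5) of chick embryos for which the labels name no genotype or treatment. The labels give the neural tubes as stage HH10 and the incubation as HH10 to 11. Neural tubes were treated with Dispase, an enzyme that loosens tissue layers (1 mg/ml, 15 minutes per the labels), freed of ectoderm and mesoderm, and cut by hand into segments that were pooled. Each region had 2 pools collected on different occasions, set 1 and set 2, each hybridised to 1 Affymetrix Chicken GeneChip, which gave 12 arrays and n = 2 pools per region. In pooled tissue of this kind, fewer cells of a type and less RNA per cell cannot be told apart. Signals are MAS5 intensities, scaled so that every array has the same median, 5.90.

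Genes that mark m, r4 and r5 followed the labels. OTX2, a midbrain gene, read 899 and 800.0 in m and between 1.65 and 145 elsewhere. HOXA2, which is expressed from r2 backwards, read at most 0.831 in m and r1 and at least 24.6 in r2 to r5, and HOXA3 read 512 and 503 in r5 and at most 56.1 elsewhere. HOXB1 read 225 and 367 in r4 and at most 101 elsewhere. The labels of r1, r2 and r3 were not checked by a gene of their own, and EGR2, a gene of r3 and r5, was not analysed here. The r3 arrays stood apart. Affymetrix control probe sets lie at the 3′ and 5′ ends of actin, GAPDH and EF1a, and their mean log2 ratio of 3′ over 5′ signal, which rises as labelled product thins out away from the 3′ end, was 7.12 and 6.12 in r3, against 4.05 and 3.56 in r4, 3.36 and 2.08 in r5, and stayed between 1.28 and 2.07 on the arrays of the 3 front regions. The deposited medians of the r3 arrays were 2.27 and 4.35, against 4.19 to 9.67 on the other arrays. Every r3 value below therefore comes from the arrays with the highest ratio, and the part of this ratio in the r3 results cannot be told apart from the region.

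Most respiratory chain genes were well detected. The mean scaled signal was over 100 for 60 of the 78 genes and below 20 for 6. The ratio of the highest to the lowest of the 6 region means had a median of 1.88-fold over the 77 genes tested, was under 1.5-fold for 22 and over 4-fold for 11. Their summed signal made up 1.59% to 1.67% of all signal on the arrays of m, r1 and r2, 2.14% and 1.80% on those of r3, and 1.78% to 1.86% on those of r4 and r5.

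Of the 22 genes with a span under 1.5-fold, 11 were accessory subunits of complex I. COX4I1, a subunit of complex IV, read 1226 and 1308 in m, 1195 and 1403 in r1, 1264 and 1223 in r2, 1236 and 1058 in r3, 1247 and 1545 in r4 and 1483 and 1528 in r5. No region stood apart for COX4I1, and its adjusted p over the 6 regions was 0.44 (limma, moderated F, Benjamini-Hochberg over 21731 probe sets). COX8A, another complex IV subunit, averaged 156 ± 8.7, 163 ± 14.5, 131 ± 2.98, 128 ± 9.02, 155 ± 13.7 and 163 ± 13.7 from m to r5 (SD, n = 2 each), with an adjusted p of 0.44. UQCRC1, a core protein of complex III, spanned 1.31-fold between regions, and NDUFA4 1.41-fold. NDUFA4 is a small subunit first assigned to complex I, and it is counted throughout among the accessory subunits of complex I. ATP5H, subunit d of the ATP synthase stalk, spanned 1.29-fold, and ATP5F1AZ, the alpha subunit of its catalytic head, 1.49-fold.

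The F test over the 6 regions passed for 31 of the 77 genes, or 40.3%, where 34.9% of all 21731 probe sets and 41.4% of 9940 genes with 1 probe set each passed, so the share was near the background. Among probe sets with a mean signal over 100 the shares were 41.7% of 60 respiratory chain genes and 58.3% of 5372 probe sets. By complex, 4 of 6 core and 11 of 28 accessory subunits of complex I passed, 1 of 2 of complex II, 5 of 8 of complex III, 3 of 7 of complex IV, 4 of 14 of complex V and 3 of 12 assembly factors. The lowest adjusted p values were those of ATP5B (2.7e-05), ATP5J (6.7e-05), NDUFS8 (0.00012) and NDUFB2 (0.00016). With the 2 r3 arrays left out, 18 of 77 passed, or 23.4%, against 19.0% of all probe sets.

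**Figure D1:**
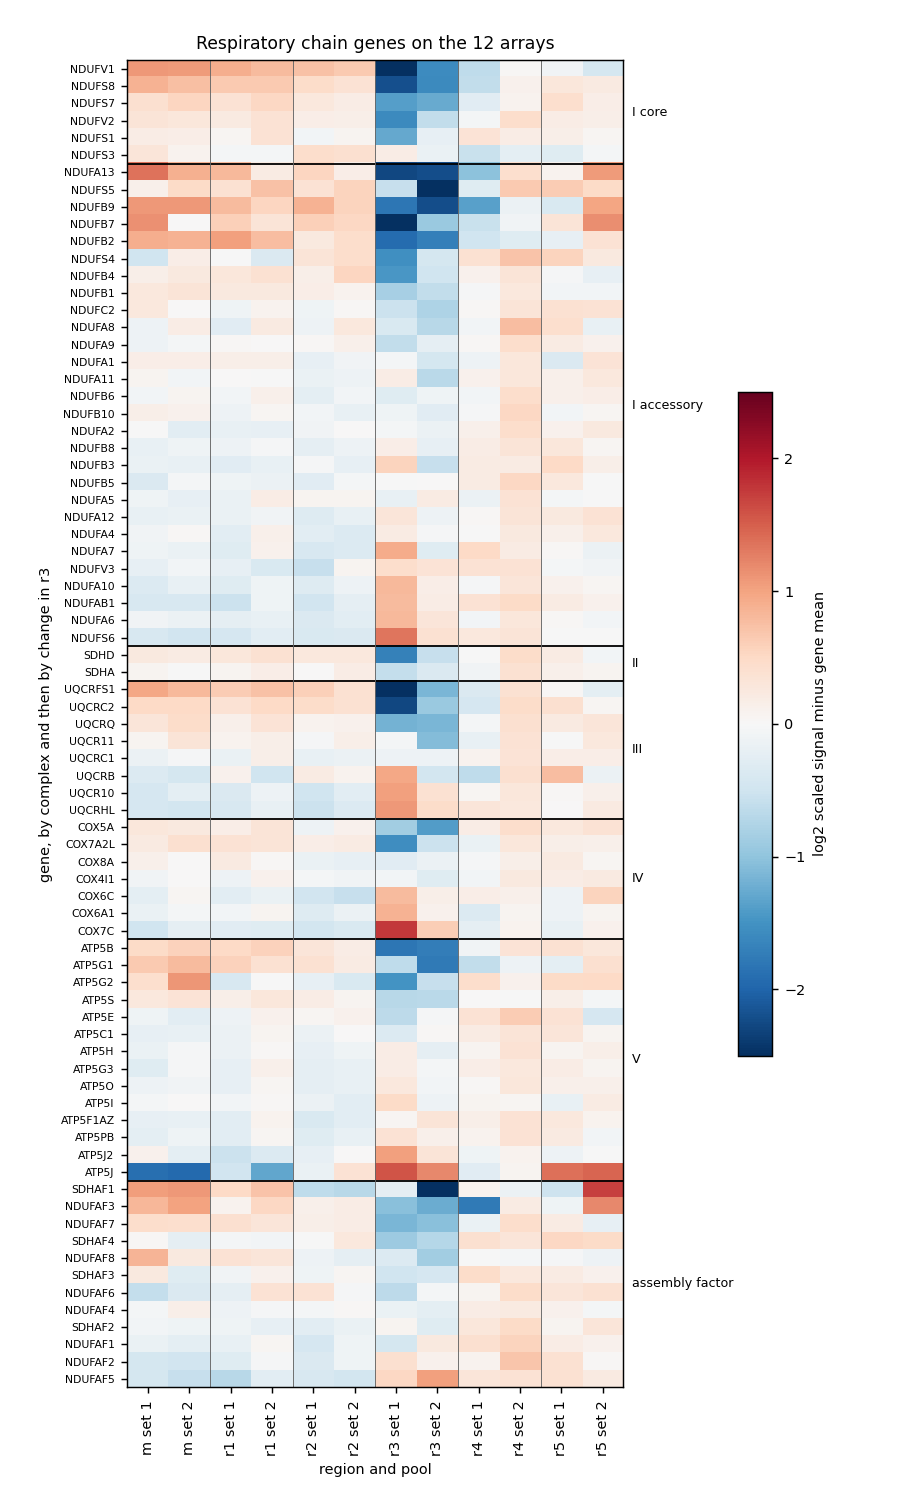
Log2 scaled signal of the 77 tested respiratory chain genes (rows, grouped by complex and sorted by the change in r3) on the 12 arrays (columns, 2 pools per region), as the difference from the mean of each gene over the arrays. The r3 columns hold the deepest blue and red cells, and ATP5J in complex V is low in m and high in r3 and r5.

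Calls in this comparison and those that follow passed at an adjusted p of 0.05 (limma). Against the mean of the other 5 regions, 32 of 77 genes were lower in r3 (41.6%, against 39.7% of all probe sets and 45.3% with 1 probe set per gene) and 13 were higher (16.9%, against 7.12% and 7.70%). Among genes with a mean signal over 100, 38.3% of 60 were lower and 20% higher, against 58.2% and 13.1% of all 5372 probe sets this bright. The median log2 difference of the 77 genes was -0.26, against -0.63 over all probe sets tested. Both r3 arrays lay below all 10 other arrays for 31 genes, or 40.3% (29.5% of all probe sets), and above them for 8, or 10.4% (6.70%).

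The core of complex I had the lowest median of the groups. Of its 6 genes measured, 5 were lower in r3 and none higher, with a median of -1.46, and NDUFS3, an iron-sulphur protein subunit, was at 0.01 and did not pass. NDUFV1, the flavoprotein that takes electrons from NADH, read 24.1 and 47.6 in r3, against a lowest, median and highest value of 91.0, 229 and 298 on the other 10 arrays. The r3 arrays did not overlap with the rest, and the log2 difference was -2.47 ± 0.24 (SE; adjusted p = 1.5e-05, limma). NDUFS8, which carries iron-sulphur clusters near the quinone site, read 72.4 and 111 in r3, against 218, 444 and 604 elsewhere. NDUFS7, its partner at that site, read 47.2 and 51.0, against 100.4, 153 and 178. For both genes too the 2 r3 arrays were the lowest of the 12, with log2 differences of -2.27 ± 0.20 and -1.59 ± 0.17. NDUFV2, the second flavoprotein subunit, and NDUFS1, the largest iron-sulphur subunit, were lower by less, at -1.33 and -0.89. The r3 pools lay far apart for both, with 228 and 450.2 for NDUFV2 and 204 and 426 for NDUFS1.

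Accessory subunits of complex I went both ways, with 11 of 28 lower in r3, 5 higher and a median of -0.24. NDUFA13, also known as GRIM-19, read 7.56 and 7.89 in r3, against 18.1, 51.0 and 94.6 on the other arrays, a log2 difference of -2.70 ± 0.37 (adjusted p = 0.00012, limma). A second probe set of NDUFA13 had a mean signal of 30.8, against 46.7 on the one used. It read 16.3 and 25.1 in r3, against 21.2 to 41.7 elsewhere, and did not pass there (-0.68, adjusted p = 0.070, limma). NDUFB9 read 29.1 and 21.9, against 39.7, 163 and 217, and NDUFB2 read 14.8 and 17.2, against 39.8, 73.8 and 114. NDUFB9 and NDUFB2 both belong to the membrane arm, and their r3 arrays were the lowest 2 of the 12. NDUFS5 and NDUFB7, at -2.45 and -2.38, had low signals, at most 22.6 for NDUFS5 and 23.9 for NDUFB7, so that their differences rest on weak probe sets. In the other direction, NDUFS6, a zinc-binding subunit, read 2322 and 1185 in r3, against 655, 740.3 and 1147 elsewhere, a log2 difference of 1.03 ± 0.19 (adjusted p = 0.001, limma). Both r3 pools of NDUFS6 were the highest of the 12, but they differed by almost 2-fold from each other. NDUFA6, NDUFAB1 (the mitochondrial acyl carrier protein), NDUFA10 and NDUFV3 were higher in r3 by 0.47 to 0.66 on the log2 scale.

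Both genes that the name rule found for complex II, succinate dehydrogenase, were lower in r3. Its other subunits were not among the genes measured here. SDHA, the flavoprotein, read 245 and 286 in r3, against 348, 385 and 481 on the other arrays (-0.57 ± 0.15, adjusted p = 0.0083, limma). SDHD, a membrane anchor, read 145 and 316, against 446, 560.1 and 648 (-1.36 ± 0.23, adjusted p = 0.00055). Neither gene overlapped between r3 and the rest.

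Complex III split into a falling and a rising group, with 4 of 8 genes lower and 2 higher in r3. UQCRFS1, the Rieske iron-sulphur protein, read 50.3 and 161 in r3, against 274, 499 and 690.4 elsewhere, and UQCRC2, a core protein, read 72.3 and 183, against 262, 468 and 494. The log2 differences were -2.37 ± 0.32 and -1.92 ± 0.29, and for each gene the r3 pools differed from each other by more than 2-fold while both stayed below the rest. UQCRQ read 275 and 281, against 599, 749 and 857, with pools that lay close together. UQCR10 and UQCRHL, a small subunit and a hinge protein gene, went up, with 3311 and 2118 in r3 for UQCR10, against 1151, 1436 and 1982, and 3121 and 2031 for UQCRHL, against 1013, 1219 and 1817.

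Of the 7 complex IV genes tested, COX5A and COX7A2L were lower in r3 and COX6A1, COX6C and COX7C higher. COX7C read 3998 and 1801 in r3, against 829, 986 and 1266 on the other arrays, a log2 difference of 1.43 ± 0.23 (adjusted p = 0.00037, limma). COX5A, a subunit on the matrix side of the enzyme, read 43.3 and 29.9, against 72.5, 94.0 and 107, a difference of -1.35 ± 0.19. COX7A2L, which links complexes III and IV in supercomplexes, read 162 and 325, against 421, 549 and 624. The COX7C pools of r3 were both the highest and lay more than 2-fold apart.

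Complex V had the fewest calls for its size, with 3 of 14 genes lower in r3, 2 higher and a median of 0.03. ATP5B, the catalytic beta subunit, read 333 and 352 in r3, against 1101, 1502 and 1747 elsewhere, and its log2 difference of -2.13 ± 0.13 had the lowest adjusted p of the 77 genes in this comparison (1.7e-06, limma). Its partner in the catalytic head, the alpha subunit gene ATP5F1AZ, read 2239 and 2704 in r3, against 1668, 2107 and 2778, with overlapping groups and a difference of 0.22 ± 0.14 that did not pass (adjusted p = 0.22). Subunit c, the proton-carrying ring, has 3 genes that code for the same mature protein. ATP5G1 read 253 and 116 in r3, against 258, 516 and 680.2, a difference of -1.44 ± 0.25 that passed, while ATP5G3 read 2098 and 1776, against 1497, 1878 and 2220.0, a difference of 0.08 ± 0.14 that did not. ATP5G2 had a weak probe set, with at most 9.05 on the 12 arrays. ATP5S, factor B, was lower by 0.82, and ATP5J2, subunit f, higher by 0.81.

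Among the assembly factors, 5 of 12 were lower in r3 and 1 was higher. NDUFAF7, a methyltransferase that acts on a complex I subunit, read 63.3 and 68.0 in r3, against 122, 167 and 191 on the other arrays, and SDHAF4, which helps flavinated SDHA into complex II, read 90.0 and 102, against 143, 187 and 239. NDUFAF5 was the gene that rose, with 117 and 165 in r3, against 50.5, 64.8 and 106 (0.92 ± 0.19, adjusted p = 0.0021, limma). SDHAF1, at -1.90, and NDUFAF3, at -1.37, were dim among these genes, with mean signals of 10.0 and 11.2.

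**Figure D2:**
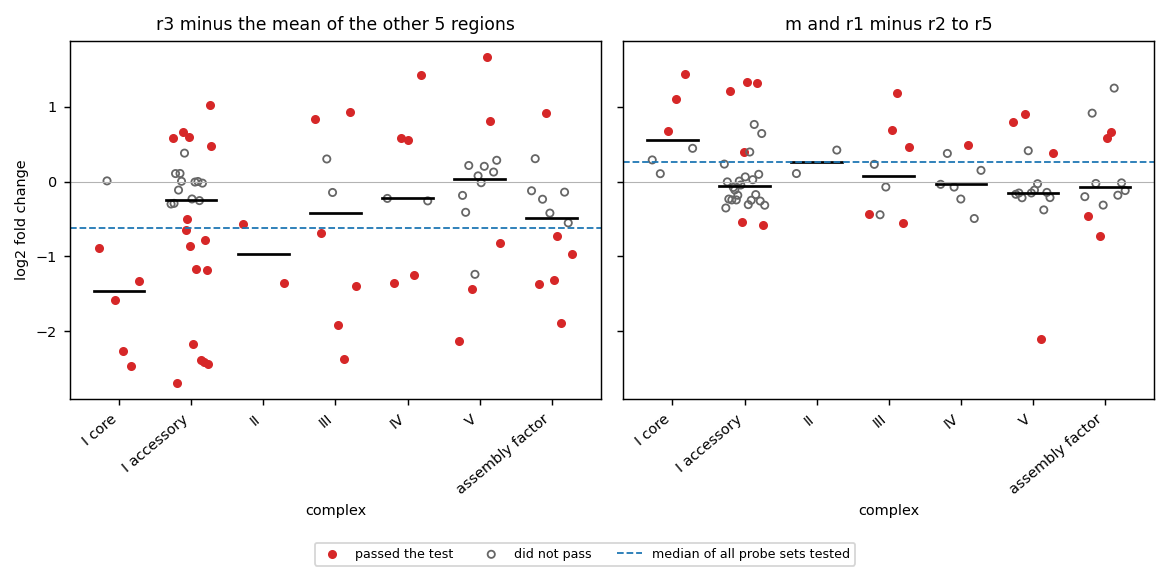
Log2 fold change of each tested respiratory chain gene by complex, for r3 minus the mean of the other 5 regions (left) and for m and r1 minus r2 to r5 (right). Filled points passed the test at an adjusted p of 0.05, open points did not, black lines are medians of the complex and the dashed line is the median of all probe sets tested, which lies at -0.63 on the left and 0.27 on the right.

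The direction of many of these calls depended on how the arrays were put on one scale. Division by the array median gave 13 genes higher and 32 lower in r3, quantile normalisation 18 higher and 25 lower (17.8% and 23.7% of all probe sets), division by the 75th percentile 39 higher and 17 lower (24.2% and 18.2%), and no scaling 0 higher and 57 lower (0.423% and 61.4%). The median of the genes in r3 was -0.26, -0.12, 0.53 and -1.22 under these 4 scalings, while the median of all probe sets was -0.63, -0.12, 0.14 and -1.52. Relative to all probe sets, the genes therefore lay 0.37 higher in r3 with median scaling, 0.0022 higher with quantile normalisation, 0.39 with the 75th percentile and 0.30 with no scaling. The median of the complex I core lay below that of all probe sets under each of the 4, at -1.46, -0.78, -0.67 and -2.42.

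Under all 4 scalings 16 of the 77 genes, or 20.8%, were called lower in r3, where 17.6% of all probe sets were, so this share too was near the background. They were NDUFV1, NDUFV2, NDUFS7 and NDUFS8 of the complex I core, NDUFA13, NDUFB2, NDUFB7, NDUFB9 and NDUFS5 of its accessory subunits, the assembly factor NDUFAF7, SDHD, UQCRC2, UQCRFS1, UQCRQ, COX7A2L and ATP5B. No gene was called higher in r3 under all 4 (0.423% of all probe sets), and 11 were under the 3 that scale the arrays. When the mean log2 control ratio of each array entered the fit as a covariate beside the regions, 0 of 77 genes were called in r3 in either direction, and 8 of the 32 lower and 5 of the 13 higher genes changed sign. Those were COX7A2L, NDUFA13, NDUFA9, NDUFAF3, NDUFB7, NDUFB9, NDUFS4 and NDUFV2 of the lower and ATP5J2, COX6A1, NDUFA10, NDUFAB1 and NDUFS6 of the higher genes. The slope of this fit rests on the gaps between the 2 pools of a region, and the r3 arrays lie at the far end of the ratio. Estimates for r3 are therefore imprecise, with NDUFS5, for example, at -6.22 (adjusted p = 0.61, limma). The lost calls and changed signs cannot tell the ratio from the region. With no scaling, 10 of the 13 higher genes changed sign, the exceptions being ATP5J, COX7C and NDUFS6.

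**Figure D3:**
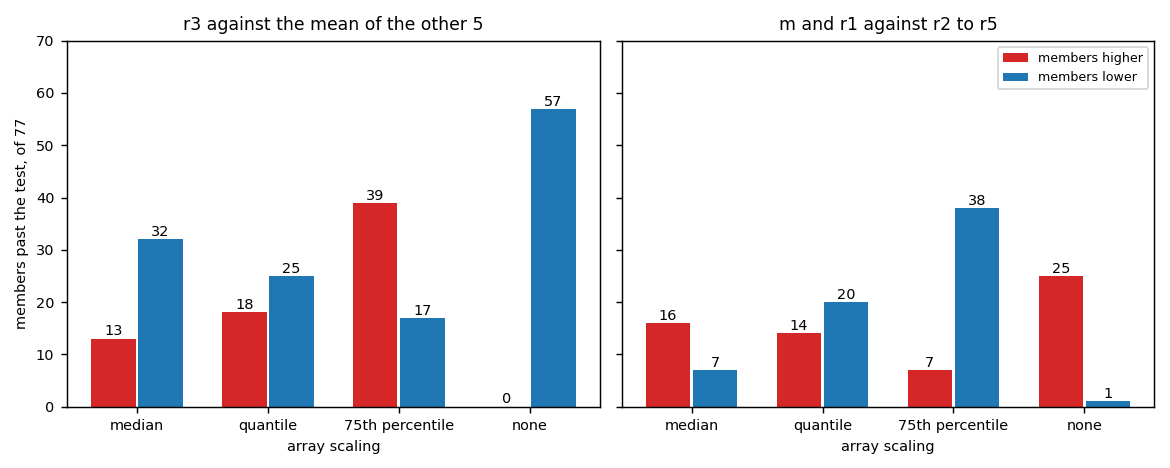
Number of the 77 respiratory chain genes called higher (red) or lower (blue) at an adjusted p of 0.05 under 4 ways of scaling the arrays, for r3 against the mean of the other 5 regions (left) and for m and r1 against r2 to r5 (right). In r3 the lower calls range between 17 and 57 and the higher calls between 0 and 39.

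The second comparison set the anterior pair of regions, m and r1, against r2 to r5. In m and r1, 16 of 77 genes were higher (20.8%, against 20% of all probe sets and 21.6% with 1 probe set per gene) and 7 were lower (9.09%, against 5.68% and 7.71%). Of the 60 genes with a mean signal over 100, 21.7% were higher and 10.0% lower, against 28.4% and 11.4% of all probe sets this bright. All 4 arrays of m and r1 lay above the 8 others for 6 genes, or 7.79% (7.23% of all probe sets), and below them for 1, or 1.30% (1.39%). Because r3 is among the regions on the other side, the same comparison without the r3 arrays is given beside it, where 7 genes were higher (13.7% of all probe sets) and 9 lower (5.97%). All 7 that were higher without r3 were also among the 16, and 6 of the 9 that were lower were among the 7. Leaving out 1 array of m or r1 reduced the count of higher calls. The count of lower calls fell without either m array or r1 set 1 and rose without r3 set 2. The shares of all probe sets with 1 array left out are not given here.

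NDUFV1, NDUFS8, NDUFB2, NDUFB9, UQCRFS1 and ATP5B were higher in m and r1 under all 4 scalings and also without the r3 arrays (7 genes under all 4 scalings, or 9.09%, against 8.42% of all probe sets, and 1 lower, against 0.966%). Under the 3 that scale the arrays, 7 of the 16 higher and all 7 lower calls held, so the lower count fell only with no scaling added. The shares of all probe sets under these 3 are not given here. With the control ratio as covariate none of the 6 genes named above was called, and NDUFB9 turned to -0.0854. This ratio was lower on every array of m and r1 than on any array of r3, r4 and r5, though by little for r5 set 2 (2.08, against 2.07 in r1 set 2). The arrays of r2 overlapped with those of m and r1. The part of the ratio in these calls was not tested. NDUFV1 read 298 and 298 in m and 265 and 246 in r1, against a lowest, median and highest value of 24.1, 119 and 235 in r2 to r5. NDUFS8 read 604 and 563 in m and 526 and 522 in r1, against 72.4, 374 and 459. For both genes every array of m and r1 was above every other array, and the region means stepped down in the order m, r1, r2. The log2 difference of NDUFV1 was 1.45 ± 0.19 (adjusted p = 0.00038, limma), and 0.92 ± 0.13 without r3 (0.00033).

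UQCRFS1 read 690.4 and 624 in m and 549.7 and 591 in r1, against 50.3, 332 and 536 in r2 to r5, a log2 difference of 1.18 ± 0.25, and 0.66 ± 0.13 without r3. NDUFB2 read 105 and 102 in m and 114 and 94.9 in r1, against 14.8, 46.9 and 75.9, with differences of 1.34 ± 0.17 and 0.88 ± 0.15. The groups did not overlap for these 2 genes. ATP5B read 1634 and 1745 in m and 1655 and 1747 in r1, against 333, 1381 and 1526, with a difference of 0.80 ± 0.11 that shrank to 0.30 ± 0.10 without r3 (adjusted p = 0.046). NDUFB9 overlapped, with 217 and 217 in m and 176 and 148 in r1, against 21.9, 84.9 and 202, and differences of 1.32 ± 0.27 and 0.79 ± 0.25.

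ATP5G1 was higher in m and r1 with and without r3, at 0.90 ± 0.20 and 0.60 ± 0.13, with 620.0 and 680.2 in m and 585 and 516 in r1, against 116, 348 and 518. This call was not made under all 4 scalings. NDUFA13 passed with r3 (1.22, adjusted p = 0.0098) and not without (0.61, 0.14). On the second NDUFA13 probe set the difference was 0.05 in m and r1 (adjusted p = 0.90, limma) and 0.21 in m (0.70). The remaining 8 of the 16, among them NDUFS7, UQCRC2, UQCRQ, COX7A2L and ATP5S, had differences between 0.39 and 0.70 and did not pass without r3. On the lower side, NDUFS6 read 693 and 655 in m and 680.0 and 766 in r1, against 702, 1006 and 2322 (-0.59 ± 0.15, and -0.36 ± 0.08 without r3). UQCRHL, NDUFAB1, NDUFAF2 and NDUFAF5 were lower by 0.46 to 0.73 and passed with and without r3, whereas UQCR10 passed only with r3. The split of calls again moved with the scaling, with 14 higher and 20 lower under quantile normalisation, 7 and 38 under the 75th percentile, and 25 and 1 with no scaling. The corresponding shares of all probe sets were 12.1% and 11.4%, 8.86% and 16.2%, and 34.0% and 0.989%.

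**Figure D4:**
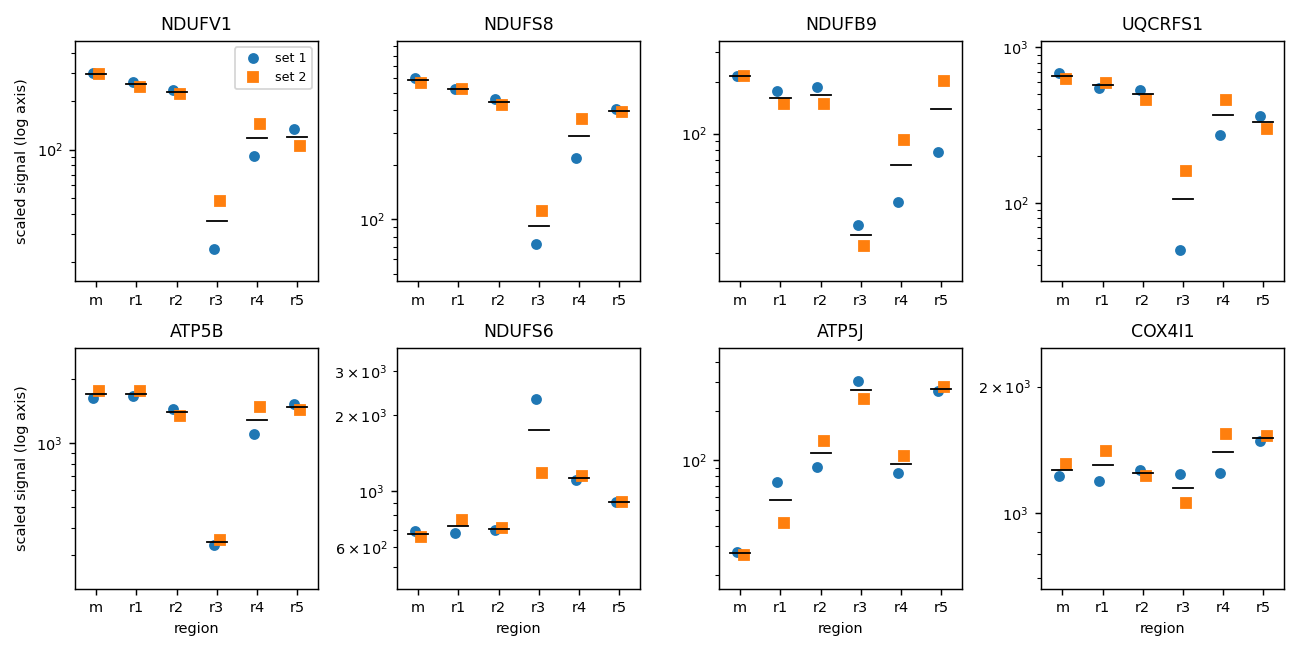
Scaled signal (log axis) of 8 respiratory chain genes in midbrain and rhombomeres 1 to 5, with set 1 as circles, set 2 as squares and lines at the mean of the 2 pools. NDUFV1, NDUFS8, NDUFB9, UQCRFS1 and ATP5B drop in r3, NDUFS6 is highest in r3, ATP5J is lowest in m, and COX4I1 stays between 1058 and 1545.

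ATP5J, which codes for coupling factor 6 of the ATP synthase stalk, had the second widest span between region means after NDUFA13. It read 27.7 and 26.4 in m, 73.4 and 41.3 in r1, 91.3 and 132 in r2, 304 and 235 in r3, 83.6 and 107 in r4 and 265 and 279 in r5, a span of 10.1-fold, against 10.5-fold for NDUFA13. The arrays of m and r1 were the lowest 4 of the 12, and those of r3 and r5 the highest 4. In m and r1 the log2 difference from r2 to r5 was -2.10 ± 0.18 (adjusted p = 2.6e-05, limma), and -1.87 ± 0.17 without the r3 arrays. ATP5J was the only 1 of the 77 genes called lower in m (-2.30 ± 0.23; 1.30%, against 2.16% of all probe sets), lower in r1 (-1.07 ± 0.23; 0.612% of all probe sets) and higher in r5 (1.70 ± 0.23, adjusted p = 0.0026; 1.14% of all probe sets). No gene was called lower in r5 (0.566% of all probe sets), and 6 of 77 had an unadjusted p under 0.05 there (7.79%, against 11.5%). ATP5J was also the only gene that passed the F test and the r5 comparison once the control ratio was a covariate. The same covariate ended its calls in m (-2.30 became -2.42, adjusted p = 0.21, limma), r1 (0.56), r3 (0.73) and m and r1 (-2.24, 0.29). Its calls in r1, r3 and r5 were lost with no scaling of the arrays, where the log2 differences were -0.65, 0.71 and 1.37, while the calls in m and in m and r1 held under all 4 scalings. Leaving out either r5 array ended the call in r5, with adjusted p-values of 0.064 and 0.080.

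ATP5J lies between JAM2 and GABPA in the order of genes of the RefSeq table (assembly GRCg7b). JAM2, a junctional adhesion molecule, was also lowest in m and r1 and highest in r3 and r5, with 385 and 426 in m, 587 and 659.7 in r1, 858 and 854 in r2, 1296 and 1633 in r3, 829 and 1013 in r4 and 1542 and 1866 in r5. Its log2 differences were -1.23 for m and r1, 0.86 for r3 and 1.12 for r5, and all 3 passed, against -2.10, 1.67 and 1.70 for ATP5J. GABPA, a transcription factor known in mammals to regulate genes of the respiratory chain, was higher in r3 (0.60, adjusted p = 0.003) and did not pass in m and r1 (-0.23) or r5 (-0.06). JAM2 and GABPA were looked at because they neighbour ATP5J, after the values of ATP5J were known. The array annotation assigns 2 further probe sets to ATP5J, which stayed between 0.415 and 9.36 and between 1.43 and 9.32 on the 12 arrays and did not show the pattern. Whether the probe set used reads ATP5J transcripts alone was not tested, since the places of its probes were not analysed here.

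Few genes stood apart in the other single regions. In m, 6 genes were higher (7.79%, against 6.33% of all probe sets), namely NDUFV1, NDUFS8, NDUFB2, NDUFB9, NDUFA13 and ATP5B, with log2 differences of 0.63 to 1.35. NDUFV1 and NDUFS8 kept this call under all 4 scalings. None of these calls held when either m array was left out, and the count of higher calls in m rose without either r3 array. The share of all probe sets in these fits is not given here, so the rise is not read as a result about these genes. Without the r3 arrays 5 genes were higher in m (6.49%, against 5.03% of all probe sets), of which 3 were among these 6. In r1, NDUFB2 (1.07 ± 0.21) and ATP5B (0.65 ± 0.13) were higher (2.60%, against 1.65%), and neither was called without both r3 arrays or without any 1 array of m, r1 or r2. In r2 no gene was called higher (0.290% of all probe sets) or lower (0.106%) by limma, and 14 of 77 had an unadjusted p under 0.05 (18.2%, against 12.4% of all probe sets).

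In r4 no gene was called higher (0.690% of all probe sets) or lower (0.456%) by limma, and 15 of 77 had an unadjusted p under 0.05 (19.5%, against 14.1% of all probe sets). The median log2 difference was 0.21 in r4 and 0.17 in r5, against 0.06 for all probe sets in each, and 60 of 77 genes, or 77.9%, had a positive value in each of these regions, against 55.0% of all probe sets in r4 and 56.4% in r5. The r4 pools lay apart. The median deviation from the gene means over the 77 genes was 0.01 in r4 set 1 and 0.31 in r4 set 2. In r5 it was 0.15 and 0.12. Over all probe sets tested it was -0.05 and 0.22 in r4, so the value for r4 rests largely on set 2. Bright probe sets in general also leaned to positive values in both regions. Of 5372 with a mean signal over 100, 3912 were positive in r4 and 3607 in r5, with medians of 0.16 and 0.10. Of the 60 genes this bright, 51 and 46 were positive, with medians of 0.21 and 0.16. In r4, 12 of these 60 genes and 1022 of the 5372 probe sets had an unadjusted p under 0.05 (limma). Under quantile normalisation the medians were 0.05 in r4 and 0.08 in r5, against 0.04 and 0.03 for all probe sets, and with no scaling both turned negative, at -0.12 in r4 and -0.16 in r5. Without the r3 arrays, 11 genes were higher in r4 (14.3%, against 5.63%) and 6 lower (7.79%, against 11.2%). The higher genes were NDUFA7, NDUFAB1, NDUFAF1, NDUFAF2, NDUFAF5, NDUFB5, NDUFS6, NDUFV3, SDHAF2, UQCR10 and UQCRHL, and the lower ones ATP5G1, NDUFB2, NDUFB9, NDUFS7, NDUFS8 and NDUFV1. NDUFB9 had the strongest fall, with 39.7 and 91.7 in r4 and a log2 difference of -1.45 ± 0.31 from m, r1, r2 and r5. NDUFS6 rose by 0.59 ± 0.10, with 1104 and 1147 in r4. The r4 arrays had the next highest 3′ over 5′ ratios after r3, and the part of this ratio in the r4 values cannot be told apart from the region. Summed signals of neural crest, neuronal and head mesoderm markers were also highest in r4, as given below. The part of these cells in the r4 values was not tested.

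The pools of a region agreed less well in r3 than elsewhere. The median absolute difference between set 1 and set 2 over the 77 genes was 0.41 on the log2 scale in r3, 0.31 in r4, 0.16 in r5, 0.18 in r1 and 0.11 in m and in r2. Over all probe sets tested it was 0.70 in r3, 0.45 in r4 and 0.35 in r5, and 0.27 in r1, 0.26 in r2 and 0.23 in m. Each of these was larger than the value over the 77 genes. The 77 genes were also brighter, with a median mean signal of 432, against 21.9 for all probe sets tested. Gaps at like brightness were not compared. Set 1 and set 2 were more than 2-fold apart for 15 genes in r3, 4 in r4, 3 in r5, 1 in m and 0 in r1 and r2. Within r3, the pool with the higher 3′ over 5′ ratio was set 1, with a median deviation from the gene means of -0.23 over the 77 genes, against -0.30 in set 2. The median of the complex I core lay further down in set 1, at -1.49, against -0.94 in set 2. The median of complex III lay further down in set 2, at -0.69, against -0.09 in set 1. Complex III genes did not move together between the r3 pools. By the values above, UQCRFS1 and UQCRC2 were lower in set 1, and UQCR10 and UQCRHL were higher in set 1. Without set 1 of r3 fewer genes were called higher in r3 than with both pools, and without set 2 more were. Lower calls were slightly fewer without either pool. The shares of all probe sets in these fits are not given here.

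Calls in r3 often differed between the probe sets of a gene, although most of the further probe sets were dim. For 33 of the genes at least 2 probe sets were tested, 83 in all. The r3 call was the same on every probe set for 10 of these genes and differed for 23, and for 20 genes the log2 differences of the probe sets were more than 1 apart. A call on one probe set and none on another counts here as differing, with no test of the difference. Of the 50 further probe sets, 31 had a mean signal under 20, and among the 8 genes with at least 2 probe sets over 100 the call differed for 5 and the values were more than 1 apart for 2, NDUFB3 and NDUFS1. NDUFS1, NDUFA10 and COX6C had probe sets called in opposite directions. NDUFA10, for example, was higher in r3 on the probe set used, with 1234 and 782 in r3, against 550.1 to 858 elsewhere, and lower on the other, with 13.8 and 48.8, against 51.8 to 86.4 (-1.36, adjusted p = 0.0089, limma).

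NDUFB3 showed the gap between 2 probe sets of like brightness. On the one used the difference in r3 was -0.01 (adjusted p = 0.99), with 402 and 183 in r3, against 225 to 386 elsewhere, and on the next it was -1.51 (1.1e-05), with 116 and 96.5 in r3, against 251 to 358. ATP5O, which codes for the OSCP subunit of the ATP synthase stalk, gave 0.13 on the probe set used and -0.58 and -0.84 on the next 2, of which the last 2 passed. UQCRC1 gave -0.14 on the bright probe set used and -2.79 on a dim one. The probe sets gave like values in r3 for NDUFS6, at 1.03 and 1.01, for UQCR10, at 0.84 and 0.42, for COX5A, at -1.35 and -1.22, and for SDHD, at -1.36 and -1.59. Of the 6 genes higher in m and r1 under all 4 scalings and without r3, NDUFV1, NDUFS8, NDUFB9, UQCRFS1 and ATP5B had no other probe set tested, and the other probe set of NDUFB2 had a difference of 1.04 in m and r1 (adjusted p = 0.22).

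**Figure D5:**
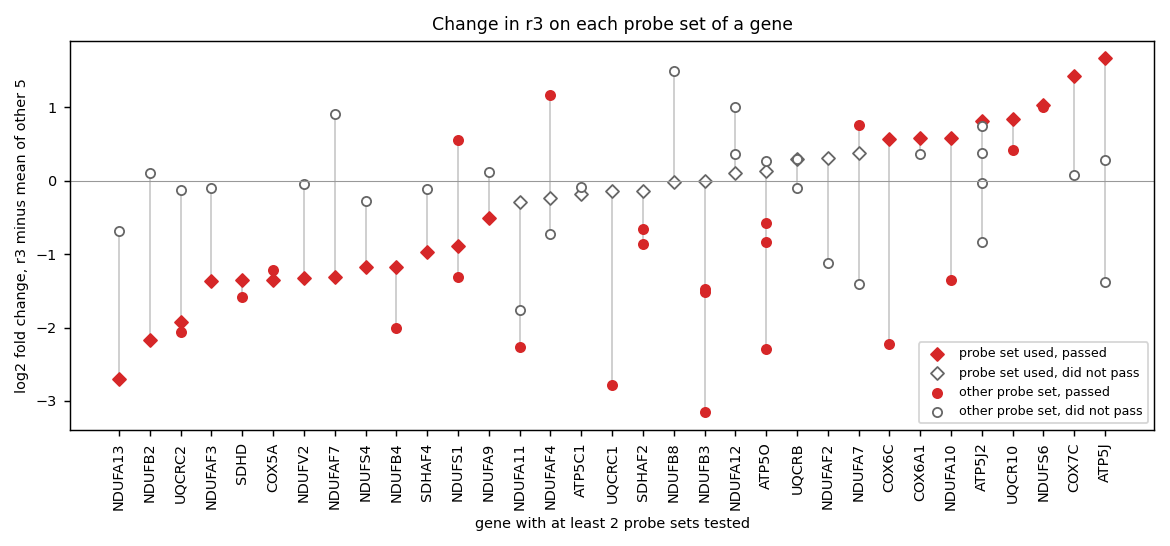
Log2 fold change in r3 against the mean of the other 5 regions for every tested probe set of the 33 genes with at least 2 of them, sorted by the probe set used (diamonds), with other probe sets as circles. Filled symbols passed the test, and for 20 genes the symbols of 1 gene span more than 1 on the log2 scale.

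Lists of other mitochondrial genes, of glycolysis and of cytosolic ribosomal proteins were counted in r3 as well. Of all probe sets tested, 39.7% were lower and 7.12% higher there. Among those with a mean signal over 100 the shares were 58.2% and 13.1%. Of 31 assembly factors outside the name rule, such as the heme A synthase COX15, 22 were lower in r3 and 0 higher, with a median of -0.98. Of 65 mitochondrial ribosomal protein genes, 46 were lower and 3 higher (median -0.97), and of 25 genes for carriers, channels and import, 16 were lower and 4 higher (-0.96). Tricarboxylic acid cycle and pyruvate dehydrogenase genes had 11 of 19 lower and 1 higher (-0.61), and glycolysis 12 of 18 lower and 3 higher (-0.75). Cytochrome c (CYCS) read 307 and 404 in r3, against 777 to 1156 elsewhere. Cytosolic ribosomal protein genes had 21 of 66 lower and 33 higher, with a median of 0.50.

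In m and r1 against r2 to r5, where 20% of all probe sets were higher and 5.68% lower, and 28.4% and 11.4% of those with a mean signal over 100, 26 of the 65 mitochondrial ribosomal protein genes were higher and 3 lower, as were 9 and 4 of 25 carrier and import genes, 6 and 1 of 31 other assembly factors, 5 and 2 of 19 tricarboxylic acid cycle genes and 7 and 2 of 18 glycolysis genes. Of 17 regulators of mitochondrial gene expression, 3 were higher and 1 lower in m and r1, and 7 were lower and 1 higher in r3. TFAM, which packages and transcribes mitochondrial DNA, was among the higher genes, with 341 and 343 in m and 348 and 378 in r1, against 132 to 287 in r2 to r5. PPARGC1A, the coactivator PGC-1alpha known in mammals for driving mitochondrial biogenesis, peaked in r1 and r2 (chosen after its values were seen). It read 6.39 and 8.95 in m, 39.1 and 47.0 in r1, 62.7 and 59.0 in r2, 10.0 and 23.4 in r3, 9.99 and 15.4 in r4 and 11.0 and 9.98 in r5, with an adjusted p over the 6 regions of 0.0015 (limma). None of the 77 respiratory chain genes was called higher in r2 (0.290% of all probe sets), and the 2 called higher in r1 (1.65% of all probe sets) are given above. With so few calls among all probe sets, these counts cannot be set against PPARGC1A, and a link was not tested.

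Markers of other cell types were counted as well. In r3, 39.7% of all probe sets tested were lower and 7.12% higher, and 58.2% and 13.1% of those with a mean signal over 100. The shares of all probe sets for m and r1 against r2 to r5 are given above. The lists are short, and a count near these shares does not set a cell type apart. Markers of the neural tube itself, 7 of which were tested, had 3 higher and 1 lower in r3. Their sums were 3176 and 2938 in r3, against 1379 to 2263 on the other arrays. Endoderm and heart markers, 4 of which were tested, had 1 higher and 1 lower in r3. Of 7 neural crest markers 6 were lower in r3 and 0 higher, and their summed signal was 308 and 269.7 in r3, against 386 to 2016 on the other arrays. In r4, 4 of these 7 were higher and 0 lower, against 0.690% and 0.456% of all probe sets. Their sums were highest there, at 1684 and 2016, and r4 is part of the mean that r3 was set against. Of 7 markers of head mesoderm, somite and notochord 3 were higher and 3 lower in r3, with sums of 353 and 330.2 in r3, against 194 to 489.8 elsewhere. In r4, 2 of these were higher and 0 lower, with sums of 444 and 489.8. Blood and endothelial markers, 7 of which were tested, had 4 lower members and 0 higher in m and r1, with sums of 28.2 to 61.1 in m and r1, against 70.1 to 179 in r2 to r5. In r3 this list had 2 higher and 0 lower members, with sums of 128 and 130. In r2 it had 1 higher member (0.290% of all probe sets), with sums of 179 and 177. The alpha globin gene HBA1, 1 gene of this list, read between 0.198 and 9.26 on all arrays and does not stand for the rest. Surface ectoderm and otic placode markers, 5 of which were tested, had 2 higher and 1 lower in m and r1, with sums of 1165 to 1267 in m and r1, against 629 to 1032 in r2 to r5. The lower one was DLX5, with 94.1 to 151 in m and r1, against 234 to 666 in r2 to r5. The list as planned also held PAX2, which was planned as a marker of the regions too, and its part in the sums was not tested. Of 7 neuronal markers 4 were lower and 1 higher in r3, and 5 were lower and 2 higher in m and r1. In r4, 2 neuronal markers were higher and 0 lower, and their sums were the highest of all arrays, at 2023 and 2377. Neural tube and surface ectoderm markers each had 1 higher and 0 lower in r4. Blood and endoderm markers had 0 of either there. The part of these cells in the respiratory chain values was not tested.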

How the data were processed

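RNA of 2 pools per region was amplified to cDNA and hybridised by the authors to Affymetrix Chicken GeneChips, and the deposited values are MAS5 signal intensities on a linear scale, 1 per probe set and array, with no depth or detection call used here. Of 38535 probe sets, 96 controls were left out. Each array was divided by its median and multiplied by 5.90, signals under 1.03 (the 20th percentile over all arrays) were set to that value, and log2 was taken. A probe set was kept where both arrays of a region exceeded their medians, which left 21731 for limma (version 3.58.1, R 4.3.3), in which the variance prior followed the signal level (6 residual and 6.00 prior degrees of freedom). P-values had Benjamini-Hochberg adjustment over all of them and a threshold of 0.05. The tests were a moderated F over the 6 regions, each region set against the average of the 5 others, and m and r1 against r2 to r5. The 2 pools of a region were collected on different occasions. P-values and SE rest on a spread between pools that is pooled over all regions, not on that of the region itself. They therefore do not measure the wider spread in r3, where the median absolute gap over all probe sets tested was 0.70, against 0.23 in m. For r3 the SE can be too small, and for regions with close pools too large. Only 2 arrays per region limit the precision.

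Gene symbols came from the platform annotation, in which 27168 probe sets had 1 symbol, 177 had several and 11094 had none, and 77 of the 78 genes were found in the RefSeq gene table (assembly GRCg7b), used for names and neighbours only. By the rule for names, the text names, for the F test, the 8 genes with the lowest p, for each contrast up to 6 called genes with the highest and 6 with the lowest change, the brightest and dimmest gene of each complex, paralogues of a subunit, complex II, and up to 4 genes of each other list. Further genes, such as UQCRC2, COX5A, NDUFAF7, SDHAF4, NDUFB3 and ATP5O, were named after their values were seen, as were genes named for their count of calls. The members and the gene lists were chosen with earlier results of these data known. Alternatives were other scalings, floors and filters, no intensity trend, array weights, a plain analysis of variance, the set number as a block, the control ratio between 3′ and 5′ ends as covariate, all probe sets, and leaving out arrays. Code was tested on simulated data. Promoter motifs and sequences were not analysed here. Tables were summarised in Python 3.11.15 with pandas 2.3.3 and drawn with matplotlib 3.10.9.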

Additional observations from a re-analysis of the deposited data

How the results depend on the processing

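The counts of calls moved most with the scaling, the r3 arrays and the 3′ over 5′ ratio, in a design of 2 pools per region. For most settings below, among them all with 1 array left out, the share of all probe sets is not given. A changed count there is not read as a result about these genes. The 31 genes past the F test became 49 under the 75th percentile, 18 with no intensity trend, 17 in a plain analysis of variance, 18 without both r3 arrays and 1 with the ratio as covariate, and 27 to 47 when 1 array was left out (47 without r3 set 2). In r3 the 13 higher calls became 0 with no scaling, 39 under the 75th percentile, 8 with no trend, 5 with array weights and 0 with the covariate (6 to 17 with 1 array left out, 6 without r3 set 1). The 32 lower calls became 57, 17 and 0 with no scaling, the 75th percentile and the covariate (27 to 31). In m and r1 the 16 higher calls became 25 with no scaling, 7 under the 75th percentile, 7 without r3 and 0 with the covariate (9 to 21, with 9 without either m array), and the 7 lower calls became 20 with quantile normalisation, 1, 38, 3 with no trend, 4 in the plain analysis of variance and 0 with the covariate (2 to 16, with 3 without either m array and 16 without r3 set 2).

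In m the 6 higher calls became 3 under the 75th percentile, 10 with the stricter filter, 2 with no trend, 19 with array weights, 3 in the plain analysis of variance and 0 with the covariate (0 to 17 with 1 array left out, 15 and 17 without r3 set 1 or set 2). The 1 lower call became 6 with quantile normalisation, 21, 3, 10 and 0 under the 75th percentile, stricter filter, weights and covariate (1 to 9, with 7 and 9 without r3 set 1 or set 2). In r1 the 2 higher calls became 0 with no scaling, the 75th percentile, no trend, the plain analysis of variance, the covariate or no r3 arrays, 1 with no filter, 4 with the stricter filter and 12 with weights (0 to 12). The 1 lower call became 3 with quantile normalisation, 2 under the 75th percentile, 6 with weights and 0 with no scaling, no filter, the block, no trend, the plain analysis of variance, the covariate or no r3 arrays (0 to 9). Over all 127 probe sets of these genes, 1.57% were higher and 0.787% lower in r1, against 2.60% and 1.30%. In r2 the 0 higher calls became 1 with quantile normalisation and 5 with weights (0 to 6), and the 0 lower calls 10 with weights (0 to 9). Without r3 the 0 and 0 calls in r4 became 11 higher and 6 lower (0 to 6 and 0 to 0 with 1 array left out), and in r5 the 1 higher call became 2 and the 0 lower calls 2. In r5 the higher calls were also 0 with no scaling and 2 with weights (0 to 4), and the lower ones 0 to 0.

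For the F test and every contrast but r3, the highest count with 1 array left out came without an r3 array, except for the lower calls in r4 and r5, which were 0 throughout. The calls in r1 were all lost without any 1 array of m, r1 or r2, the higher call in r5 without either r5 array, and the higher calls in m and r1 became 9 or 10 without an array of m or r1, with 2 lower calls without r1 set 1.

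The median log2 difference of the genes was -0.26 in r3 and became -0.12, -1.22 and 0.53 with quantile normalisation, no scaling and the 75th percentile (-0.335 to -0.24 with 1 array left out). In m it was -0.03 and became 0.00748, 0.38 and -0.37 (-0.0652 to 0.0116), in r1 -0.01 and became 0.405 with no scaling and -0.29 under the 75th percentile (-0.0801 to 0.0924), and in r2 -0.05 and became -0.0149, 0.73 and -0.26 (-0.116 to 0.000781). In r4 it was 0.21 and became 0.0532 with quantile normalisation and -0.12 with no scaling (0.041 to 0.36), in r5 0.17 and became 0.0759, -0.16 and 0.15 (0.144 to 0.204), and in m and r1 -0.03 and became 0.034, 0.49 and -0.42 (-0.0746 to 0.00405). The cause of these shifts was not tested.

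Among genes chosen by the rule for names, the covariate reversed NDUFA13 (-0.14 in m, 0.55 in r3, -0.40 in m and r1), NDUFAB1 (0.11 in m and r1), NDUFB7 (2.33 in r3), NDUFB9 (0.40 in r3, -0.0854 in m and r1) and NDUFS6 (-0.31 in r3, 0.0838 in m and r1). None of these reversed values passed, and the slope of that fit rests on the gaps between the pools of a region. Values left without any scaling reversed NDUFAF2 (0.0561 in m and r1), NDUFAF5 (-0.036 in r3), UQCR10 (-0.12 in r3) and UQCRHL (-0.0287 in r3), and over all called genes they changed the sign of 10 of 13 higher in r3 and 2 of 7 lower in m and r1. The deviations of the 15 pairs of same-numbered arrays correlated at -0.04 to 0.07, so the signals showed little shift shared by a set number. These correlations cannot tell whether the regions of a set came from the same neural tubes or occasion. With the set number as a block 30 genes passed the F test, and the calls lost were ATP5J in r1 (adjusted p = 0.0504, limma) and NDUFA13 in m. Promoter motifs were not run.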
